A study of Rattus norvegicus with 34 samples.

Results

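The genes described are 8 genes of polyamine metabolism (Odc1, Azin1, Oaz1, Oaz2, Amd1, Srm, Sms and Sat1), of 13337 genes with a symbol on the array. They were chosen by gene symbol, with earlier results of these data known, among them the difference of Odc1 in blood cells, which is therefore given as a description without a p-value. The rule takes the probe with the highest mean over the 34 arrays, but each gene had 1 probe, so that step decided nothing. All 8 passed the filter on dim probes and were among the 6760 genes tested.

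Polyamines (putrescine, spermidine and spermine) are small positively charged molecules that bind RNA and are needed for growth and translation. Ornithine decarboxylase, encoded by Odc1, makes putrescine, and spermidine synthase (Srm) and spermine synthase (Sms) lengthen it with aminopropyl groups that come from S-adenosylmethionine after decarboxylation by Amd1. Antizymes (Oaz1, Oaz2) bind ornithine decarboxylase and send it to the proteasome, antizyme inhibitor (Azin1) captures the antizymes, and spermidine/spermine acetyltransferase (Sat1) starts the return path and export. In the heart ornithine decarboxylase is known for its rise in hypertrophy, and in lymphocytes for its induction on activation.

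Doxorubicin (DOX), an anthracycline used against cancer, was given to female Sprague-Dawley rats as 1 intraperitoneal dose of 12 mg/kg (n = 9), while control rats received saline (n = 8), and all were killed after 48 h. Left ventricle and peripheral blood mononuclear cells (PBMC, from a Ficoll gradient) of the 17 rats gave 34 arrays. Values are log2 intensities, with 0 at the median of the probes that were not expressed on the same array, and arrays are named by the number in their titles. In the heart, DOX was set against saline as labelled. In the PBMC the group means behind the published list follow another grouping than the labels. There the 8 arrays labelled saline and the array labelled DOX 1 form the DOX side, and the arrays labelled DOX 2 to 9 form the control side. Both groupings are given, and which of them names the treated rats was not settled here.

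The arrays of the groups differed as a whole. The median over the genes tested lay between 0.22 and 0.70 on the DOX hearts, against 1.32 to 1.79 on the saline hearts. It lay between 0.30 and 1.46 on the DOX side of the PBMC, against 1.70 to 2.17 on the control side. The two-sided exact permutation p over all 24310 splits was 4.11e-05 in the heart, the smallest it can give, and 8.23e-05 in the PBMC (adjusted over 2 measures, the same values). The number of distinct values on an array was 2826 to 4802 on the DOX hearts against 22196 to 22417 on the saline hearts, and 2804 to 5746 on the DOX side of the PBMC against 22278 to 22419 on the control side (exact permutation, adjusted p = 4.11e-05 and 8.23e-05). As labelled, the PBMC medians were 0.32 to 2.17 on the DOX arrays and 0.30 to 1.46 on the saline arrays (exact permutation, adjusted p = 9.46e-04). Brightness, the number of distinct values and treatment cannot be told apart here. Cardiomyocyte markers were near 0 on all PBMC arrays (mean of 10 genes from −0.01 to 0.08 on the DOX side and −0.04 to 0.07 on the control side), although the labels' description of these samples names the left ventricle.

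In the left ventricle 6 of the 8 genes fell after DOX and none rose, where a change was called from a limma p, adjusted over all genes, of less than 0.05 together with a difference of more than 2-fold. Of all genes tested, 48.2% fell by the same rule, and the median log2 fold change was −1.12 over the 8 genes and −0.94 over all genes. The DOX and saline hearts did not overlap for 6 of the 8, all lower, where 63.4% of all genes showed the same. Less RNA per cell and fewer cells of a type cannot be told apart in whole ventricle. The cardiomyocyte markers moved too, with a mean of 3.22 to 4.54 on the DOX hearts against 5.58 to 6.26 on the saline hearts, with 7 of 10 called lower and 1 higher. Neutrophil markers were higher, at 0.41 to 1.02 on the DOX hearts and 0.03 to 0.26 on the saline hearts, with 2 of 3 tested called. The fibroblast list stood at 0.82 to 2.22 on the DOX hearts and 3.18 to 4.68 on the saline hearts, with 4 of 5 called lower. Their part in the result was not tested.

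Oaz1, the main antizyme, had the largest difference of the 8 in the heart on this scale, though not under quantile normalization, where it was −0.55 and not called. It measured 3.72 at the lowest, 4.35 at the median and 4.92 at the highest on the 9 DOX hearts, against 6.98, 7.35 and 7.62 on the 8 saline hearts. A gap of more than 2 log2 units separated the groups. The log2 fold change was −2.89 ± 0.16 (SE; limma, adjusted p = 4.78e-12), a fall of 7.41-fold, at the percentile 5.95 of all genes tested. Oaz2, a second antizyme, measured 1.53, 2.74 and 3.24 on the DOX hearts against 2.99, 3.41 and 3.76 on the saline hearts. Its groups overlapped, and at −0.83 ± 0.20 it stayed under the 2-fold threshold (limma, adjusted p = 7.80e-04).

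Azin1, which frees ornithine decarboxylase from antizyme, was close to the level of probes not expressed in every DOX heart, from 0.07 to 0.56 with a median of 0.43. On the saline hearts it ranged between 1.48 and 2.84 with a median of 2.39, so no DOX heart reached the lowest saline heart. The log2 fold change was −1.95 ± 0.15 (limma, adjusted p = 6.61e-10). Odc1 itself lay near the middle of all genes in this tissue. It measured 0.19, 0.998 and 1.32 (lowest, median, highest) on the DOX hearts against 1.61, 2.03 and 2.30 on the saline hearts, a log2 fold change of −1.14 ± 0.15 (limma, adjusted p = 6.84e-07). That was 0.20 below the median of all genes, at the percentile 43.6.

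Of the enzymes that build spermidine and spermine, Sms had the largest difference. It measured 0.25, 0.80 and 1.20 on the DOX hearts against 2.27, 2.53 and 2.86 on the saline hearts, and the log2 fold change was −1.75 ± 0.12 (limma, adjusted p = 1.15e-10). Srm lay between 0.03 and 0.37 on the DOX hearts, the level of probes not expressed, against 0.98 to 1.73 on the saline hearts (−1.10 ± 0.09). Since no background was subtracted, its fold change is compressed by that floor. Amd1, the decarboxylase that supplies the aminopropyl groups, measured 2.47, 3.12 and 3.70 on the DOX hearts and 3.75, 4.24 and 4.51 on the saline hearts, with −1.08 ± 0.15 (limma, adjusted p = 2.01e-06). Its call was the closest of the 6 to the threshold, and without heart DOX 6, the dimmest DOX array with a median of 0.22, it was −0.997 and no longer past 2-fold. Sat1, the acetyltransferase, overlapped, with 1.47, 2.07 and 2.61 on the DOX hearts against 2.05, 2.58 and 3.28 on the saline hearts. Only 3 of the 9 DOX hearts lay below the lowest saline heart, and −0.58 ± 0.17 was not past 2-fold (limma, adjusted p = 0.00448).

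**Figure D1:**
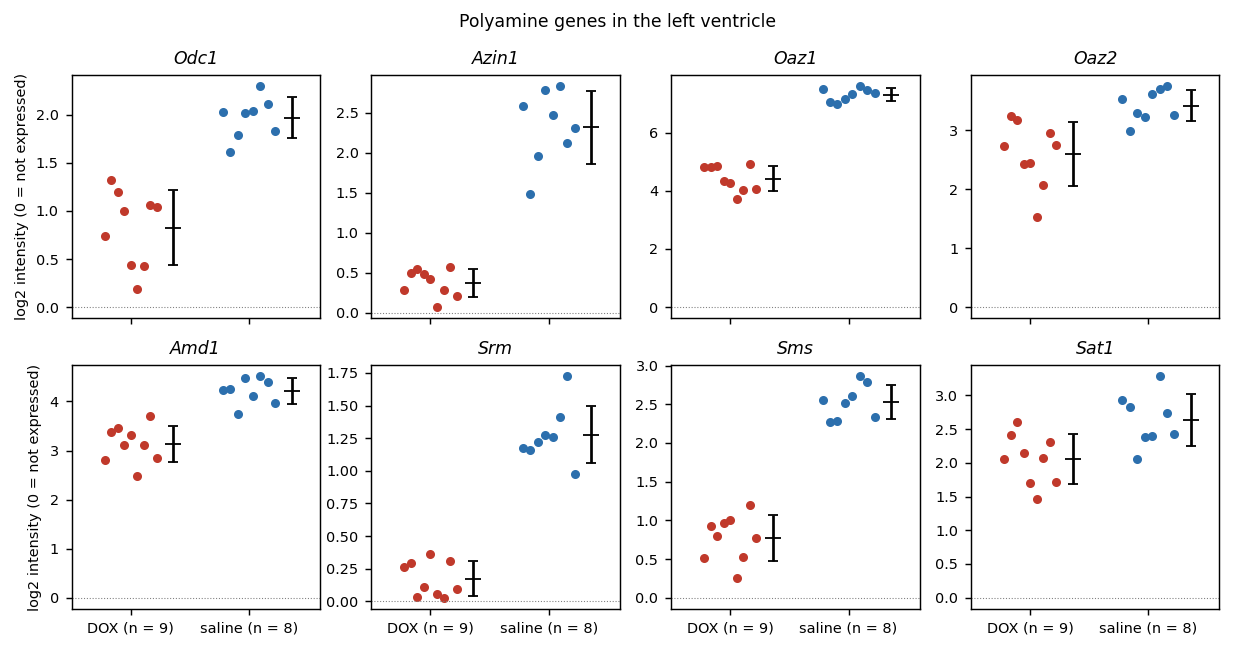
Log2 intensity of the 8 genes on each left ventricle array, 9 DOX (left, red) and 8 saline (right, blue), with the mean and SD beside each group and 0 at the probes not expressed. The groups are apart for Odc1, Azin1, Oaz1, Amd1, Srm and Sms, and overlap for Oaz2 and Sat1.

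In the PBMC, 7 of the 8 genes were lower on the DOX side of the published grouping and none was higher, where 54.4% of all genes were lower by the same rule. Since Odc1 was known beforehand, the counts without it are 6 of 7 lower, 4 of 7 lower without overlap and a median of −1.84. The median log2 fold change was −1.94 over the 8 genes and −1.12 over all genes. The sides did not overlap for 5 of the 8 genes, all lower, against 38.4% of all genes. As labelled, the direction was the opposite: 7 of the 8 were higher on the arrays labelled DOX, against 44.5% of all genes, or 6 of 7 without Odc1. All 8 overlapped, where 3.34% of all genes were higher without overlap, and the array labelled DOX 1 lay within or below the labelled saline range in each. The labelled median was 1.55 over the 8 genes and 0.90 over all genes.

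Some of the blood cell lists moved with these sides, and others did not. T cell markers (Cd3d, Cd3e, Cd3g and others) had a mean of 1.73 to 3.99 on the DOX side against 4.40 to 5.001 on the control side, with 6 of 6 tested called lower, and B cell markers 0.50 to 1.65 on the DOX side and 1.83 to 2.81 on the control side, with 3 of 3. NK cell markers, at 1.15 to 3.995 on the DOX side and 3.59 to 4.56 on the control side, were called lower in 5 of 6. The leukocyte gene Ptprc was at 0.43 to 4.76 on the DOX side and 5.71 to 6.51 on the control side. Neutrophil markers were higher, at 1.26 to 2.51 on the DOX side and 0.18 to 0.84 on the control side, with 2 of 3 tested called, while Mpo, Elane and Csf3r were not above the expression cutoff. Platelet markers overlapped, at 2.69 to 6.86 on the DOX side and 4.91 to 6.58 on the control side, with 0 of 4 tested called. Red cell markers overlapped too, at 1.51 to 4.23 and 2.06 to 3.56, with 0 of 3 called. Monocyte markers were at 0.11 to 1.38 on the DOX side and 0.57 to 1.42 on the control side, with 1 of 2 called lower. The part of cell composition in the values of the polyamine genes was not tested.

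Odc1 showed the widest separation of the 8 in blood cells. It measured 0.68, −0.05, −0.09, 0.08, 0.05, 2.37, −0.08 and −0.16 on the arrays labelled saline 1 to 8 and 1.53 on the array labelled DOX 1. On the control side it measured 5.30, 5.48, 5.18, 5.19, 5.36, 4.57, 4.96 and 5.68 on the arrays labelled DOX 2 to 9. On most arrays of the DOX side the transcript thus sat at the level of probes not expressed, and more than 2 log2 units separated the highest of them from the lowest control-side array. The log2 fold change was −4.73 ± 0.32 (SE), which that floor compresses, since no background was subtracted. As labelled it was 4.46 ± 0.51 in the other direction. Odc1 on the heart arrays stayed within 0.19 to 2.30 in both groups.

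Oaz1 behaved unlike Odc1 on the same arrays. On the arrays labelled saline 1, 2, 3, 4, 5, 7 and 8 it measured 6.59, 7.50, 7.49, 8.20, 7.21, 7.62 and 7.48, against 7.16 to 7.88 with a median of 7.42 on the control side, so these 7 arrays covered the control range. The other two arrays of the DOX side, saline 6 at 4.26 and DOX 1 at 3.92, were far below, and the same pair had the highest Odc1 of that side, 2.37 and 1.53. Over all 9 the log2 fold change of Oaz1 was −0.76 ± 0.52 (limma, adjusted p = 0.189), and without this pair it was −0.02 ± 0.18. The pair correlated at 0.93 with each other over all probes and at 0.59 to 0.84 with the other 7 arrays of the side, which correlated at 0.83 or more among themselves. Without the pair the Odc1 difference was −5.15 ± 0.16 and 7 of the 8 genes were again called lower. The share of all genes called without the pair is not given here, so this count has no background beside it.

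The promoters of Odc1, Oaz1 and Srm are shown because Odc1 and Oaz1 diverged in the blood cells and because Oaz1 and Srm hold the letters CACGTG, which the Myc and Max dimer binds. Each run covers 250 bases before and 50 after the gene's start, 5′ to 3′ on the gene's strand, from RefSeq on GRCr8. Odc1 is at chr6:46058415-46058714 (plus strand), Oaz1 at chr7:9536941-9537240 (minus strand) and Srm at chr5:164308752-164309051 (plus strand). Capitals mark every copy, on either strand, of that motif, of the TATA motif TATAA, and of GGGCGG, the core of the GC box that Sp1 binds.
Odc1: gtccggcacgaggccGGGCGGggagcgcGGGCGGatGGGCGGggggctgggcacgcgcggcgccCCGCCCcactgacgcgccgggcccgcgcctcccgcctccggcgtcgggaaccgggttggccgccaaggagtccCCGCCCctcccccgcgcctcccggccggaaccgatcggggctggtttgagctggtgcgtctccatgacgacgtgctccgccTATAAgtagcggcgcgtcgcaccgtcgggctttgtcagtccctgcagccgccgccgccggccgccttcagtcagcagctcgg
Oaz1: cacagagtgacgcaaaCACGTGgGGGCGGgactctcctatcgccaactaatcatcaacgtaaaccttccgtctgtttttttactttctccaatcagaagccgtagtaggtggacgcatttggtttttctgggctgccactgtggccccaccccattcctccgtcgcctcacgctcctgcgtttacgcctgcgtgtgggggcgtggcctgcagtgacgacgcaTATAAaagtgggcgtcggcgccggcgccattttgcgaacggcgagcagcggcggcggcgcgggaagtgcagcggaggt
Srm: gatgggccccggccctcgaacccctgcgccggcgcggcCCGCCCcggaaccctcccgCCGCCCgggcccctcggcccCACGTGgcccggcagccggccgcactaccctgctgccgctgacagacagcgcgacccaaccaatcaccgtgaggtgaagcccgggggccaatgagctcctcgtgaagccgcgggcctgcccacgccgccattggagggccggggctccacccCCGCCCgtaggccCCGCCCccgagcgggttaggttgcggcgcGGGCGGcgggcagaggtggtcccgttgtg
Of the 8 genes, 7 had a promoter in the table. GGGCGG stood in all 7, against 33.1% of 33469 promoters of the same length, with 5 copies in Odc1, 5 in Srm and 1 in Oaz1. TATAA stood in 3 (Odc1, Amd1 and Oaz1), against 26.2%, and CACGTG in 2 (Oaz1 and Srm), against 6.42%. In the printed runs no copy of one motif overlapped a copy of another. The Odc1 and Srm runs were rich in G and C, at 77.3% and 77.7%, and the Oaz1 run was at 60%. These matches describe letters only.

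Azin1 and Oaz2 were also lower on the DOX side, by less than Odc1. Azin1 measured between 0.10 and 0.80 on 8 arrays of the DOX side and 2.05 on saline 4, against 1.89 to 3.03 on the control side, so the sides overlapped through that array (−1.84 ± 0.22; limma, adjusted p = 1.08e-06). Saline 4 was also the brightest array of the DOX side, with a median of 1.46 over the genes tested. Oaz2 measured 1.21, 1.80 and 2.30 (lowest, median, highest) on the DOX side and 2.70, 3.03 and 3.41 on the control side, without overlap (−1.23 ± 0.15; limma, adjusted p = 8.58e-07). Relative to the median of all genes this was only 0.10 lower, and under quantile normalization Oaz2 was higher on the DOX side by 0.65.

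The synthases were lower together. Srm measured 0.02, 0.60 and 2.63 on the DOX side and 2.91, 3.37 and 4.003 on the control side (−2.63 ± 0.31; limma, adjusted p = 6.41e-07). Sms measured 0.29, 1.10 and 2.77 on the DOX side and 2.95, 3.19 and 3.92 on the control side (−2.04 ± 0.32; limma, adjusted p = 1.51e-05). In both genes the highest array of the DOX side was saline 4, and it stayed below every control-side array. Amd1 overlapped: 8 of the 9 DOX-side arrays lay below the lowest control-side array, DOX 7 at 3.81, and saline 4 at 4.67 lay above it (−1.57 ± 0.27; limma, adjusted p = 4.31e-05). Under quantile normalization the Amd1 difference was 0.21, in the other direction.

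Sat1, on the catabolic side, was lower on all 9 arrays of the DOX side than on any of the control side. It measured 1.66, 2.61 and 4.75 on the DOX side and 4.81, 5.37 and 5.49 on the control side, with a log2 fold change of −2.60 ± 0.33 (limma, adjusted p = 1.88e-06). Saline 4 again came closest to the control side. On that array Odc1 did not follow the other genes: it carried the highest Azin1, Oaz1, Oaz2, Amd1, Srm, Sms and Sat1 of the DOX side, and its Odc1 was 0.08.

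**Figure D2:**
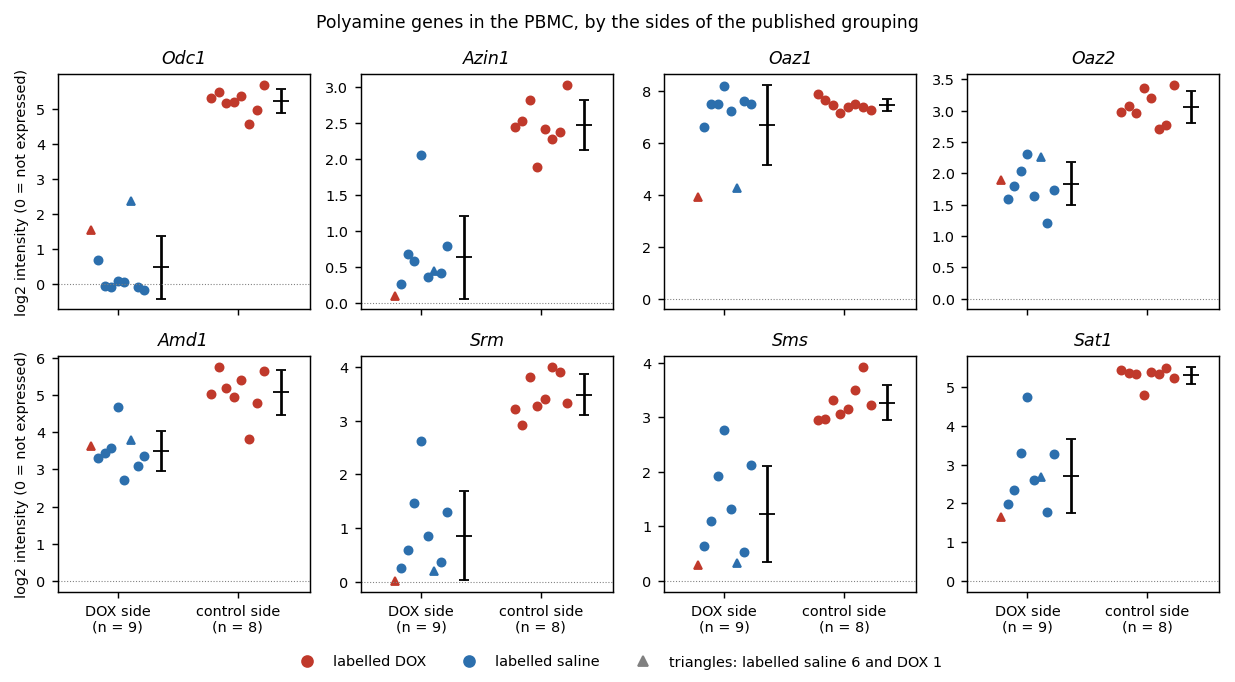
Log2 intensity of the 8 genes on each PBMC array, with the DOX side of the published grouping left (n = 9) and the control side right (n = 8), mean and SD beside each. Red points are labelled DOX and blue points saline, and triangles mark saline 6 and DOX 1, which stand apart from the other 7 DOX-side arrays in Oaz1 (4.26 and 3.92) and Odc1 (2.37 and 1.53).

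Set side by side, 5 of the 8 genes (Odc1, Azin1, Amd1, Srm and Sms) were called lower both in the DOX hearts and on the DOX side of the PBMC, as were 33.4% of all genes. The size of the difference was compared between the tissues in 1 fit of all 34 arrays, where 60.5% of all genes differed at an adjusted p under 0.05. Oaz1 was lower by more in the heart, with a PBMC effect minus heart effect of 2.13 ± 0.55 (limma, adjusted p = 0.00139). Sat1 was lower by more in the PBMC (−2.02 ± 0.38; limma, adjusted p = 3.15e-05), and for Odc1 the value was −3.59 ± 0.36. Odc1 averaged 1.97 on the saline hearts, against 5.22 on the control side of the PBMC. Its fall in the heart could thus not go much beyond 1.97, and the DOX hearts averaged 0.82. The part of this limit in the tissue difference was not tested. For Srm the tissue difference was −1.53 ± 0.32, but Srm sat at the floor on the DOX hearts. Its heart fall could not go much beyond the saline mean of 1.28. Under quantile normalization the Srm value was −0.40 ± 0.27 and did not pass. The other 4 did not pass: Amd1 at −0.49 ± 0.31, Oaz2 at −0.40 ± 0.26, Sms at −0.28 ± 0.34 and Azin1 at 0.11 ± 0.28. Amd1 passed without PBMC saline 4 (−0.63) or without PBMC DOX 7 (−0.67), and Oaz2 without heart DOX 6 (−0.53). With array weights on all arrays, Amd1 (−0.93) and Oaz2 (−0.62) both passed. Azin1 passed under quantile normalization (0.71) and with the median of the expressed probes subtracted (0.47). With the PBMC as labelled, all 8 differed, from 1.94 for Oaz2 to 5.60 for Odc1, as did 91.1% of all genes.

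**Figure D3:**
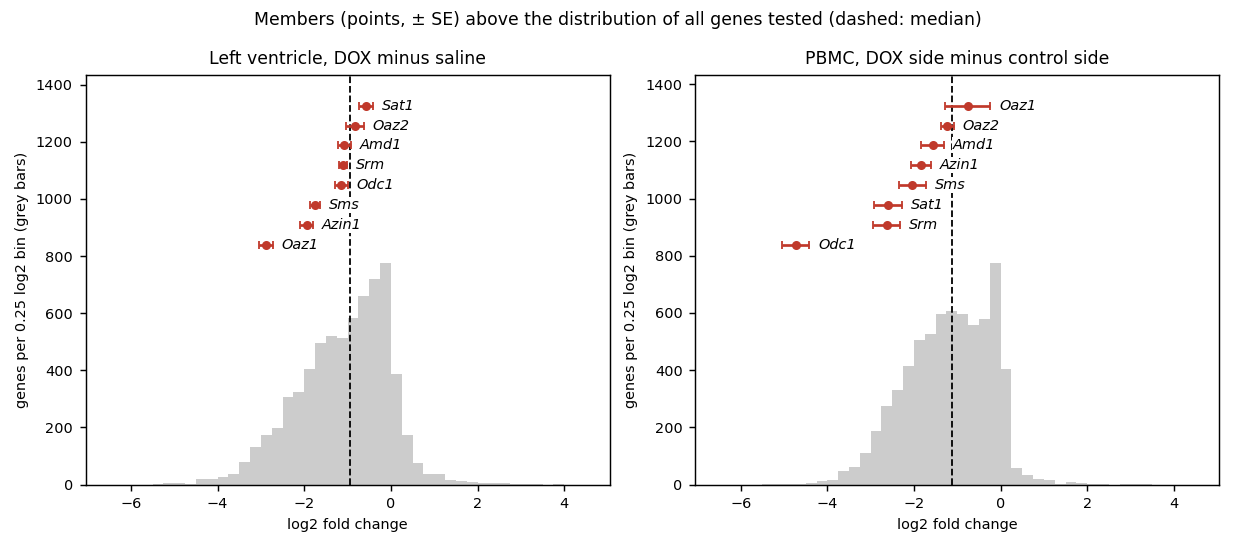
Log2 fold changes of the 8 genes (red points, ± SE) above the distribution of all 6760 genes tested (grey bars, genes per bin of log2 fold change; dashed line, median) in the left ventricle (left panel) and the PBMC by the published grouping (right panel). Oaz1 lies farthest left in the heart at −2.89, and Odc1 in the PBMC at −4.73, while the bulk of all genes is also below 0.

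The directions depend on how the arrays are put on 1 scale. The methods describe a further step that ranks each p-value among those of unexpressed genes. With it 5 of the 8 genes were called lower in the heart (Amd1 was not), and 3 on the DOX side of the PBMC (Odc1, Oaz2 and Srm). The share of all genes called with this step is not given here, so these counts have no background beside them. With the deposited values as they are, the counts of called genes among the 8 did not change. Of all genes, 47.0% were then called lower in the heart and 51.0% on the DOX side of the PBMC. With the median of the expressed probes subtracted instead, an alternative added after the data were seen, the median over all genes was −0.08 in hearts and 0.10 in blood cells, and 74.6% of the called genes were lower in hearts and 46.1% in PBMC, where the first scale gave 97.3% and 99.1%. On that scale Oaz1 (−2.02) and Azin1 (−1.08) were still called lower in the heart, and Odc1 (−3.51), Sat1 (−1.37) and Srm (−1.40) in the PBMC. Of all genes, 22.7% were called lower in the heart and 15.9% in the PBMC. Odc1 in the heart was then −0.28 and Amd1 −0.21, and Sat1 in the heart was at 0.29. Under quantile normalization 70.1% of the called genes were lower in hearts and 67.5% in PBMC, and 15.5% and 10.1% of all genes were called lower. Azin1 (−1.05) was then the only one of the 8 called in the heart, and Odc1 (−3.43) and Srm (−1.16) were called in the PBMC, while in the heart Sat1 (0.95), Oaz2 (0.85) and Amd1 (0.68) were higher after DOX.

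**Figure D4:**
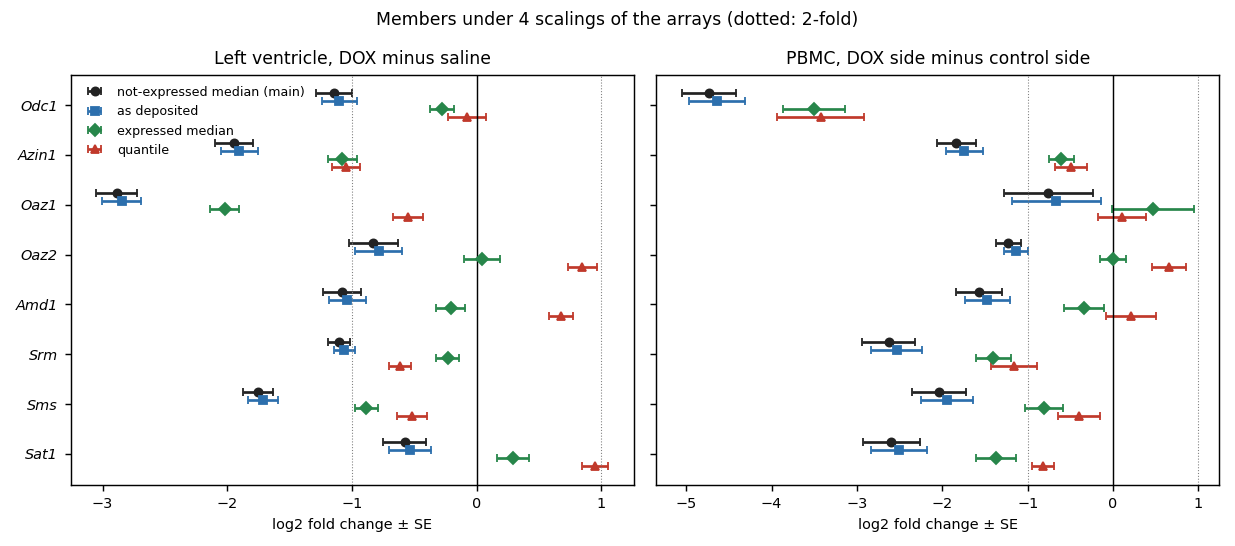
Log2 fold change (± SE) of the 8 genes under 4 scalings of the arrays, in the left ventricle (DOX minus saline) and the PBMC (DOX side minus control side), with dotted lines at 2-fold. Odc1 in the PBMC is below −3 under all 4, and Sat1, Oaz2 and Amd1 in the heart lie on both sides of 0.

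Of 39 other genes that feed, drain or regulate the pathway, 32 were on the array and 21 were tested. In the DOX hearts 13 of the 21 fell and 1 rose, beside 48.2% lower and 1.36% higher over all genes, with a median of −1.27. On the DOX side of the PBMC 13 of the 21 were lower and none higher, with a median of −1.32, and 11 were lower in both, beside 54.4% and 33.4% over all genes. As labelled, 8 were higher in the PBMC, beside 44.5% over all genes, and none lower. Without the array labelled DOX 1, 12 were higher, and the share of all genes without it is not given here. Quantile normalization left 7 called in the heart and 1 on the DOX side of the PBMC. Of all genes it called 15.5% lower and 6.63% higher in the heart, and 10.1% and 4.85% in the PBMC. It turned Adi1 (0.24), Paox (0.23) and Psmd4 (0.20) higher on the DOX side.

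Of the ornithine supply list 1 gene was tested, and of polyamine oxidation and acetylation all 3. Oat, the mitochondrial enzyme that interconverts ornithine and glutamate semialdehyde, averaged 1.61 ± 0.56 on the DOX hearts and 4.57 ± 0.27 on the saline hearts (SD, n = 9 and 8), with −2.96 ± 0.20 (SE; limma, adjusted p = 7.96e-11). The polyamine oxidase Paox fell by 2.36 and spermine oxidase Smox by 1.13 on the log2 scale. Sat2, a relative of Sat1, fell by 1.27 in the heart, was near 0 in the PBMC of both sides, and was higher by 0.28 in the DOX hearts under quantile normalization. In the PBMC Smox averaged 4.07 ± 1.74 on the DOX side and 5.66 ± 0.59 on the control side, with −1.60 ± 0.61 (limma, adjusted p = 0.0242), and −0.76 without saline 6 and DOX 1, no longer past 2-fold. Paox was at −1.33 ± 0.35 there, and at −0.96 without the pair.

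In methionine salvage, which recycles the by-product of spermidine and spermine synthesis, Got1 had the largest difference in both tissues. It averaged 3.18 ± 0.58 on the DOX hearts and 6.40 ± 0.24 on the saline hearts (−3.22 ± 0.20; limma, adjusted p = 2.66e-11), and its PBMC difference was −2.32 ± 0.28. Ahcy, which hydrolyses S-adenosylhomocysteine, was lower in both (−2.05 ± 0.11 in hearts and −2.29 ± 0.40 in PBMC), as were Adi1 and Mri1. Their calls sat at the threshold: Adi1 in the PBMC was −0.99 without DOX 1 and −0.90 without saline 6 and DOX 1, and Mri1 in the heart was −0.99 without heart DOX 6. Mat2a, which makes S-adenosylmethionine, was not called on this scale, at 0.52 ± 0.22 in hearts and −0.23 ± 0.23 in PBMC. Its values under the other scalings are not given here.

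Hypusine, a residue made from spermidine on the translation factor eIF5A, needs deoxyhypusine synthase (Dhps). Both tested genes of this step were lower in both tissues. Eif5a averaged 1.27 ± 0.37 on the DOX hearts and 2.99 ± 0.19 on the saline hearts (−1.72 ± 0.14), and 1.44 ± 0.53 on the DOX side of the PBMC and 4.02 ± 0.42 on the control side (−2.58 ± 0.23; limma, adjusted p = 2.62e-08). Dhps was at −2.40 ± 0.12 in hearts and −2.32 ± 0.32 in PBMC. Of the transport list, Slc3a2, the heavy chain of amino acid exchangers, was at −2.89 ± 0.15 in hearts and −1.76 ± 0.52 in PBMC, and at −1.07 there without saline 6 and DOX 1. Slc22a3, an organic cation transporter, was lower in the heart (−1.55 ± 0.11) and near 0 in the PBMC, and Atp13a2, a lysosomal polyamine exporter, was called lower in the PBMC (−1.28 ± 0.17) and stayed under 2-fold in the heart (−0.51 ± 0.07).

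A further list was drawn up for regulators of ornithine decarboxylase. Among them Myc is a transcription factor known to drive Odc1. Myc averaged 1.12 ± 0.80 on the DOX side of the PBMC and 3.82 ± 0.51 on the control side. The difference was −2.70 ± 0.32 (limma, adjusted p = 6.75e-07), and in the heart −0.65 ± 0.13, under 2-fold. Its partner Max was the 1 gene of the list that rose in the heart, at 1.38 ± 0.51 on the DOX hearts and 0.06 ± 0.11 on the saline hearts (1.31 ± 0.17; limma, adjusted p = 8.92e-07). Max was at −0.19 ± 0.38 in the PBMC, and at 1.04 there with the median of the expressed probes subtracted. Psmd4, a proteasome subunit that binds ubiquitin chains, was on the same list, and whether it acts on ornithine decarboxylase was not tested. Psmd4 averaged 1.28 ± 0.42 on the DOX hearts and 4.62 ± 0.19 on the saline hearts (−3.34 ± 0.15; limma, adjusted p = 2.83e-13). In the PBMC it was at −1.46 ± 0.47, and at −0.85 without saline 6 and DOX 1. Nqo1, which can bind ornithine decarboxylase, was not called on the first scale, at −0.80 ± 0.17 in hearts and 0.34 ± 0.31 in PBMC. Its values under the other scalings are not given here.

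**Figure D5:**
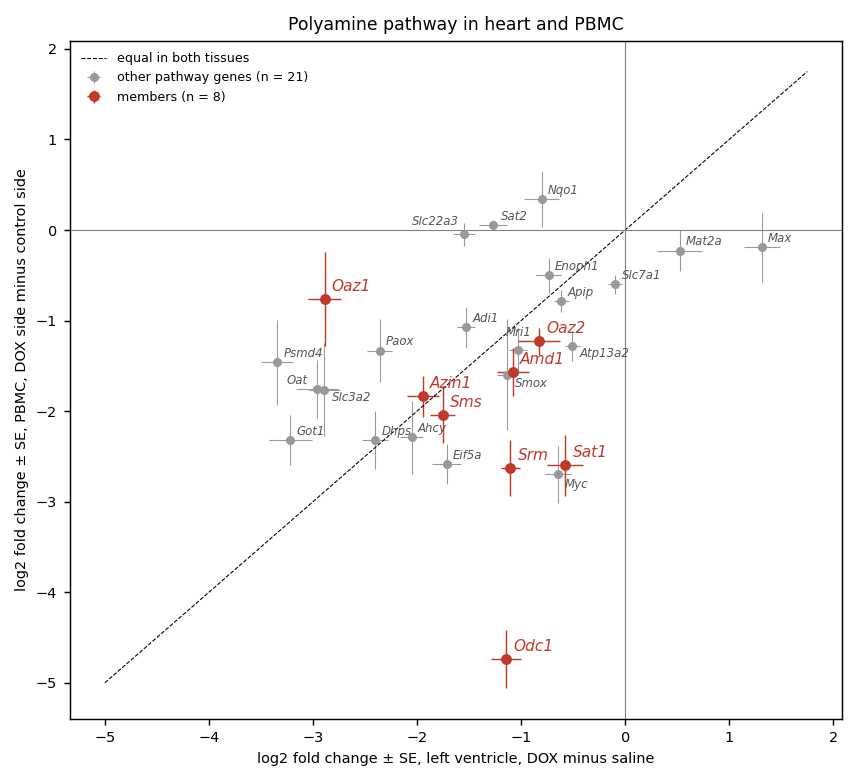
Log2 fold change in the PBMC (DOX side minus control side, vertical axis) against that in the left ventricle (DOX minus saline, horizontal axis), each ± SE, for the 8 genes (red) and the 21 other pathway genes tested (grey), with a dashed line where both are equal. Odc1 lies far below the line at −4.73 in the PBMC and −1.14 in the heart, and Oaz1 above it at −0.76 in the PBMC and −2.89 in the heart. Odc1 averaged 1.97 on the saline hearts and 0.82 on the DOX hearts, and the part of this starting level was not tested.

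The genes whose level ran most like that of Odc1 over the 34 arrays were Pogz, Igf1r, Kmt5b, Kbtbd2 and Pde4d, with Pearson r of 0.97, 0.97, 0.97, 0.97 and 0.96. The median r with Odc1 over all genes was 0.62. Over the 17 PBMC arrays the closest were Sik1 (0.98), Pogz (0.98), Pde4d (0.98), Kmt5b (0.97) and Fv1 (0.97), with a median of 0.75 over all genes. Among the 8 genes Oaz2 was the closest to Odc1 in the PBMC (0.93), and Oaz1 stood lowest, at 0.11 in the PBMC and 0.37 over the 34 arrays. Over the 17 heart arrays Oaz1 was at 0.94, with a median of 0.90 over all genes. These values are descriptions, over arrays that share tissue, side and brightness.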

How the data were processed

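RNA of left ventricle and PBMC from 17 rats was amplified and hybridised to Illumina RatRef-12 BeadChips (22523 probes). The authors took log2 of intensities without background subtraction, and the deposited log2 values are centred on each array's median. Repeat arrays of 7 rats were run, and how they entered the columns is not given in the sources used here. A second set of tables, with 34 columns that match no sample label, was not used. Author-made fold changes and p-values served only to recover the expression cutoff and the PBMC grouping.

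From the deposited log2 values, each array was set to 0 at the median of its 13137 unexpressed probes, probes were named through Entrez IDs in RefSeq, 1 probe per gene was kept (highest mean over 34 arrays), and 6760 expressed genes were fitted with limma 3.58.1 in R 4.3.3 (group means, Benjamini-Hochberg). Calls needed a Benjamini-Hochberg p of less than 0.05, and between groups also a difference of more than 2-fold. Array measures had exact permutation tests (Python 3.11.15, numpy 2.4.6). The fit was tested on simulated data. The number of arrays limits precision.

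The members and lists were chosen with earlier results of these data known. Named were all members, pathway genes called in any comparison or among the 3 brightest (plus Mat2a and Nqo1, chosen after their values were seen), and for Odc1 the 5 genes of highest r. The methods state that heart and PBMC RNA of a rat carry the same number. Deviations of the same title in both tissues correlated over 0.1 in 4 of 17 pairs (−0.18 to 0.14). Alternatives were the deposited scale, the median of the expressed probes, quantile normalization, other filters, array weights, p-values set against genes not expressed, replicate blocks, and leaving out arrays.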

Additional observations from a re-analysis of the deposited data

Results flagged for a closer look

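Dixon's test was run on 48 groups of values (8 genes in 6 groups), where chance flags about 1 in 20, and 12 values stood apart from their group. By this test the array labelled DOX 1 stood apart below the other 8 PBMC arrays labelled DOX in 7 genes. It was at 1.53 for Odc1, 1.66 for Sat1, 3.92 for Oaz1, 1.90 for Oaz2, 0.0167 for Srm, 0.29 for Sms and 0.10 for Azin1. For Amd1 it was also the lowest of them, at 3.63, but was not flagged. Among the PBMC arrays labelled saline, saline 6 stood apart in Odc1 (2.37, the next at 0.68) and in Oaz1 (4.26, the next at 6.59). Saline 4 stood apart in Azin1 (2.05, the next at 0.80), both among the labelled saline arrays and on the DOX side. On the control side, DOX 5 stood apart in Sat1 (4.81, the next at 5.26).

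The effect differed between PBMC and heart, by the limma test of the difference, for 4 genes under the published grouping: Sat1 (−2.02), Srm (−1.53), Oaz1 (2.13) and, as a description, Odc1 (−3.59). Odc1 averaged 1.97 on the saline hearts and 0.82 on the DOX hearts, and 5.22 on the control side of the PBMC. The part of the lower heart level in this difference was not tested. Srm sat at the level of unexpressed probes on the DOX hearts, and under quantile normalization its value was −0.40 and did not pass. Under the labels the effect differed for all 8 genes: Odc1 (5.60), Sat1 (2.64), Amd1 (2.50), Oaz1 (2.91), Oaz2 (1.94), Srm (3.24), Sms (3.35) and Azin1 (3.45).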

How the results depend on the processing

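Quantile normalization called 1 of the 8 genes in the heart, 2 in the PBMC by the published grouping and 1 as labelled, and 7, 1 and 2 of the pathway genes. It called 15.5% of all genes lower and 6.63% higher in the heart, and 10.1% and 4.85% by the published grouping. As labelled it called 4.93% lower and 6.86% higher. Under it these called log2 fold changes changed sign: Amd1 (0.68) and Sat2 (0.28) in the heart, Amd1 (0.21), Oaz2 (0.65), Adi1 (0.24), Paox (0.23) and Psmd4 (0.20) in the PBMC by the published grouping, Oaz2 (−0.46), Mri1 (−0.0585) and Oat (−0.11) as labelled, and the labelled tissue differences of Sat1 (−0.43), Amd1 (−0.74) and Oaz2 (−1.33). Values that were not called changed sign too: Sat1 (0.95) and Oaz2 (0.85) in the heart, Oaz1 (0.10) and Max (0.75) by the published grouping, the tissue difference of Sms (0.20), and, as labelled, Oaz1 (−0.45), Adi1, Max, Paox, Psmd4, Slc3a2 and Smox. With the median of the expressed probes subtracted, 2 genes were called in the heart, 3 by the published grouping and 4 as labelled, and 9 pathway genes in the heart and 4 as labelled. Of all genes, 22.7% were then called lower and 7.74% higher in the heart, and 15.9% and 18.6% by the published grouping. As labelled, 12.1% were called lower and 11.5% higher. There Adi1 (0.15), Max (1.04) and Slc22a3 (1.18) by the published grouping and Oaz1 (−1.03) and Mri1 (−0.0132) as labelled changed sign, all of them called on one of these scales. So did values called on neither: Sat1 (0.29), Oaz2 (0.04), Atp13a2 (0.36) and Myc (0.22) in the heart, Oaz1 (0.47) by the published grouping, the tissue difference of Sms (0.07), and, as labelled, Adi1, Max, Paox, Psmd4, Slc22a3, Slc3a2 and Smox. With p-values set against genes not expressed, 3 of the 8 were called by the published grouping (Odc1, Oaz2 and Srm) and 0 as labelled, where limma's own p-values called 7, and 2 and 0 of the pathway genes, where they called 13 and 8. The cause was not tested, and the share of all genes called with this step is not given here. Leaving out 1 array at a time gave 5 to 6 called genes of the 8 in the heart and 7 in both PBMC groupings, 13 to 14, 12 to 13 and (as labelled) 7 to 12 of the pathway genes, and 4 to 5 and (as labelled) 8 tissue differences. DOX and saline samples share title numbers only, and deviations of the same number correlated over 0.1 in 1 of 8 heart pairs and 5 of 8 PBMC pairs, and with the number as a block 6 of the 8 genes were called in the heart and 7 in both PBMC groupings. The block of heart and PBMC of 1 title left the counts of tissue differences at 4 and 8. The other alternatives changed no count of called genes by over 1.5 times. Outside the 4 scalings, the share of all genes called under an alternative is not given here. Mat2a and Nqo1 are missing from these lists of sign changes, since their values under the alternatives are not given here.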
